A study of Mus musculus with 36 samples.

Results

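The enzymes that make eicosanoids, the lipid mediators built from arachidonic acid, were followed as 10 genes chosen by name: Pla2g4a, which supplies the substrate, the leukotriene genes Alox5, Alox5ap, Lta4h and Ltc4s, and the prostanoid genes Ptgs1, Ptgs2, Ptges, Tbxas1 and Hpgds. All 10 had a row in both count tables, of 49568 gene rows in each, and all 10 passed the filter on low counts in both. The cells were RAW264.7, a mouse macrophage line, so the replicates were cultures of a single line. In the IFNγ table, cells labelled PBS were compared with cells given IFNγ at 5 ng/ml and the peptide SE or PE at 100 µg/ml for 72 h. The IL-4 table had the same 3 arms with IL-4 at 5 ng/ml. SE stands for the peptide that carries the shared epitope of HLA-DRB1, linked to rheumatoid arthritis risk, and PE for the peptide that carries the protective epitope. Each of the 6 groups held 6 libraries. The labels named replicates 1–3 and replicates 4–6 by different schemes, and these label sets were kept apart throughout.

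Cytosolic phospholipase A2, the product of Pla2g4a, cuts arachidonic acid out of membrane phospholipids. In the leukotriene branch, 5-lipoxygenase (Alox5) with its membrane partner FLAP (Alox5ap) turns it into leukotriene A4, from which leukotriene A4 hydrolase (Lta4h) makes the neutrophil attractant leukotriene B4 and leukotriene C4 synthase (Ltc4s) makes the first cysteinyl leukotriene. In the prostanoid branch, the cyclooxygenases COX-1 (Ptgs1) and COX-2 (Ptgs2) make prostaglandin H2. Terminal enzymes then convert it to prostaglandin E2 (Ptges), thromboxane A2 (Tbxas1) or prostaglandin D2 (Hpgds). In macrophages Ptgs2 is known as the inducible cyclooxygenase and Ptgs1 as the constitutive form.

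The 250 bases before the RefSeq start are shown for the 4 genes with the clearest changes, to set the members that rose beside those that fell. Ptgs2 and Tbxas1 rose with IFNγ, and Ptgs1 and Alox5 fell. The sequences are from GRCm38.p6 and run 5′ to 3′ on the strand of the gene. Capitals mark matches to the GC box and the C/EBP element in Ptgs2, to the STAT6, AP-1 and TATA elements in Tbxas1, to the PU.1 core in Ptgs1, and to the PU.1 core and the GC box in Alox5.
Ptgs2, chr1:150099781-150100030, plus strand: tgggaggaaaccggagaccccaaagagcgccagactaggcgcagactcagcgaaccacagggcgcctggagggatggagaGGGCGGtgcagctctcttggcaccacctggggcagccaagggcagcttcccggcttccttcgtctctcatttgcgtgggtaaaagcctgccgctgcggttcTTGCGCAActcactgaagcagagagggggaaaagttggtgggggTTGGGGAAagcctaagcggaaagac
Tbxas1, chr6:38918736-38918985, plus strand: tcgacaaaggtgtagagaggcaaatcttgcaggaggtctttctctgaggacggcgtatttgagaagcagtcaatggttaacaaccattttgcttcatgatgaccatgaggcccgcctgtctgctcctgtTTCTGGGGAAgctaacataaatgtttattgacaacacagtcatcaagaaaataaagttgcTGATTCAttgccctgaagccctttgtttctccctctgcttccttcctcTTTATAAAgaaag
Ptgs1, chr2:36230176-36230425, plus strand: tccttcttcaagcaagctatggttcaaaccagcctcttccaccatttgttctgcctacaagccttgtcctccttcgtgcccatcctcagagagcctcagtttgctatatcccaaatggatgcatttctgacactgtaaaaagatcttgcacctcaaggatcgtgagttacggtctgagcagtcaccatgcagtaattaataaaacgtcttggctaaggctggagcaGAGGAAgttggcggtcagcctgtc
Alox5, chr6:116461179-116461428, minus strand: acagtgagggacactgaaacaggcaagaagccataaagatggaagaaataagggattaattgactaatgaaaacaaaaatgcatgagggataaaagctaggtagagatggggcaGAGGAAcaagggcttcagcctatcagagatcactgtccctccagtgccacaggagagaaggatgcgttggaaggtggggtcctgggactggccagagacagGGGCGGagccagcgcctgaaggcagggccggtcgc

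The RefSeq table held windows of this length for 9 of the 10 members, all but Alox5ap, and 12 elements were searched on both strands in these and in all 32817 distinct windows. The Ptgs2 window held the C/EBP element TTNNGNAA at -69 to -62 and at -25 to -18, and 36.8% of all windows held it, among them those of Ptges, Hpgds and Pla2g4a. The Tbxas1 window held the STAT6 element, TTC and GAA with any 4 bases between, at -121 to -112, present in 5.85% of all windows, and the AP-1 element TGANTCA at -61 to -55, present in 6.75%. The TATA box TATAAA, present in 12.4%, matched there on both strands with overlapping bases, and was also present for Pla2g4a. The PU.1 core GAGGAA, in 23.3% of all windows, was present for all of the 9 members except Ltc4s and Pla2g4a, without being marked in the Ptgs2 and Tbxas1 sequences, and the GC box GGGCGG, in 32.7%, for Alox5, Ptgs2 and Ptges. A STAT6 element was also present for Ptges. No member window held the GAS element TTCNNNGAA (7.01% of all windows), the ISRE core, which is GAAA, any 2 bases and GAAA (2.97%), the NF-κB element (3.9%), the E-box CACGTG (6.02%) or the CRE core TGACG (17.7%), and CCAAT (33.8%) was present only for Lta4h. A match is a run of letters and not a shown binding site.

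The libraries are described first, because 3 of them go against their labels. Total counts ran from 20.67 to 63.16 M per library with IFNγ and its PBS, and between 17.05 and 30.64 M with IL-4 and its PBS, so that 3 counts, the most that a count of 0 allows, were 0.0541 to 0.166 CPM and 0.0950 to 0.172 CPM. CPM here are the usual library-scaled counts after TMM normalization. Histone, small RNA and mitochondrial genes took 1.95% to 4% of the counts in replicates 1–3 and 24.9% to 33.5% in replicates 4–6 of the IFNγ table, and 1.81% to 3.52% and 12.8% to 20.5% in the IL-4 table. Protein-coding genes took 85.1% to 85.7% in replicates 1–3 and 62.1% to 69.8% in replicates 4–6 of the IFNγ table. In the IL-4 table they took 95.4% to 97.5% and 78.6% to 87.4%. A list of 18 IFNγ response genes had a mean log2 CPM of 1.73 to 1.94 in the PBS libraries of the IFNγ table and of 5.94 to 6.28 in 9 of the 12 peptide libraries. In the libraries labelled SE, replicates 4–6, it was 1.7 to 1.8, at the level of PBS. Their values are given as those of the libraries labelled SE, and differences between the label sets in SE contrasts rest on them. A list of 12 IL-4 response genes was at -0.376 to -0.22 in the PBS libraries of the IL-4 table and at 1.36 to 2.19 in all 12 peptide libraries. The labels name a cytokine for PBS, but its 2 sets of libraries did not stand apart in either list (IFNγ list 1.8 to 1.94 in the PBS libraries of the IL-4 table, IL-4 list -0.294 to -0.17 in those of the IFNγ table). Effects of cytokine and peptide in a comparison with PBS cannot be told apart, and "with IFNγ" or "with IL-4" below means the cytokine and a peptide. All 8 macrophage markers were detected in every arm. Of 7 markers of mast cells and basophils, cells known to make Ltc4s and Hpgds, none rose above 3 counts in any library. The summed level of neutrophil markers was at most 1.19 CPM, that of lymphocyte markers 0.323 CPM and that of fibroblast and epithelial markers 0.251 CPM.

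Most calls of members were made with IFNγ. The levels are sums over a culture, in which fewer cells with a transcript and less transcript per cell cannot be told apart. A gene was called at an adjusted p under 0.05 and a fold over 1.5. In SE against PBS, replicates 1–3, 7 of the 10 members were called, where 21.2% of the 16845 tested genes were. Ptgs2, Tbxas1 and Pla2g4a rose, and Alox5, Ltc4s, Ptgs1 and Hpgds fell. In PE against PBS, 6 members were called in replicates 1–3 (background 18.5%) and 5 in replicates 4–6 (11.2%). Ptgs2 and Tbxas1 rose and Alox5, Ltc4s and Ptgs1 fell in both sets, and Ptges fell in replicates 1–3. In the libraries labelled SE, replicates 4–6, only Ptgs2 was called against PBS (2.04% of all genes), and it was lower.

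In the IL-4 table, where 14183 genes were tested, 3 members were called in SE against PBS in replicates 1–3 (background 6.17%), with Ptgs1 and Tbxas1 higher and Alox5 lower. With the replicate number as a block, fitted because same-numbered libraries correlated positively here, 5 were called there. The 2 further genes were Ptgs2 and Pla2g4a, both lower. Different-numbered libraries among replicates 2 and 3 also correlated positively, so the numbers are an uncertain pairing. The share of all genes called with the block was not counted, here or below, so its calls have no background beside them. Without SE replicate 2 the call of Alox5 was lost, and without SE replicate 1 Ltc4s (log2 fold change 0.76) and Pla2g4a (-0.76) were called as well. In PE against PBS, 4 were called in replicates 1–3 (3.48%), with Ptgs1 and Tbxas1 higher and Alox5 and Ptges lower, and leaving out any single library left between 0 and 3 of these. Within replicates 4–6, Alox5 was the single member called in SE (2.21%) and in PE (3.58%), and in both it was lower. The call in PE was lost without any 1 of the 6 libraries, with an adjusted p of 0.0591 to 0.189. With the replicate block 2 members were called there, Alox5 (adjusted p = 0.0247) and Ptgs1. The 2 peptides share their PBS libraries in each set, so their contrasts are not independent of each other.

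**Figure D1:**
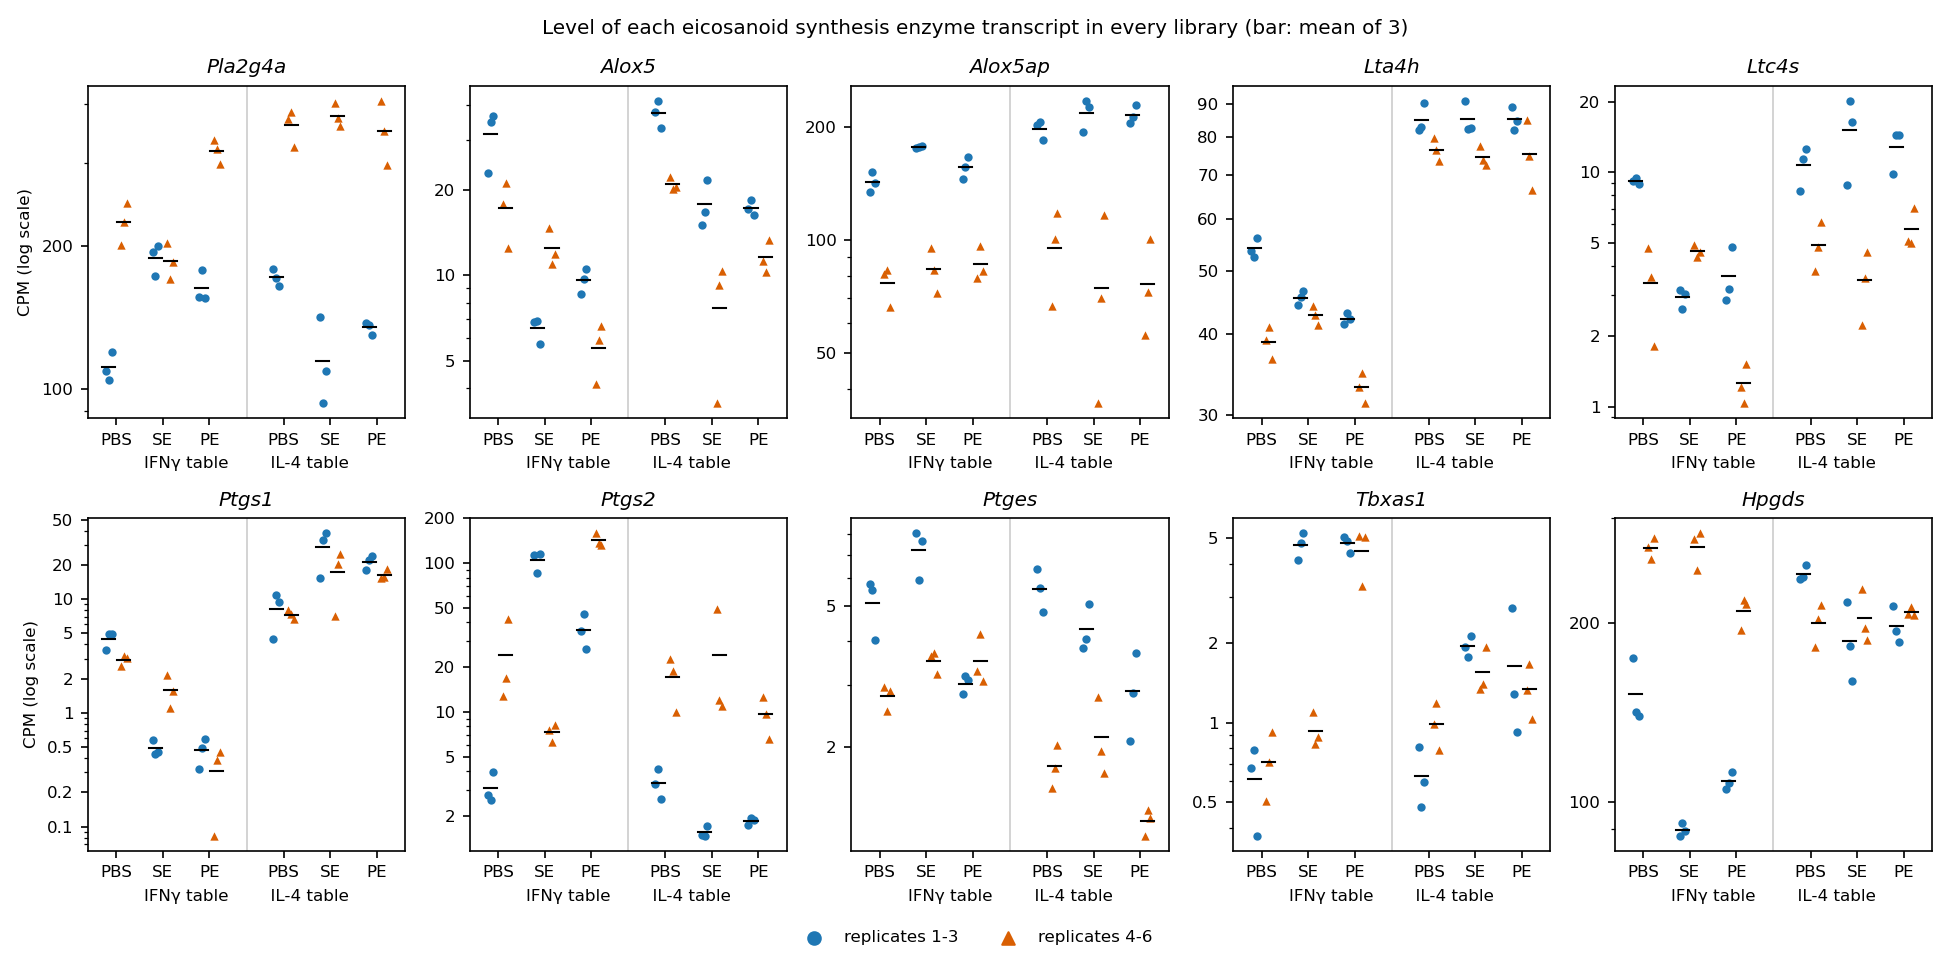
Level of each member in every library, as CPM on a log axis, by arm (PBS, SE, PE) in the IFNγ table (left of each panel) and the IL-4 table (right). Circles are replicates 1–3, triangles are replicates 4–6 and bars are means of 3. Ptgs2 reached 85.6 to 115 CPM in SE replicates 1–3 of the IFNγ table and 133 to 158 CPM in PE replicates 4–6, and the libraries labelled SE, replicates 4–6, were at 6.29 to 8.23 CPM.

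Per kb of exon, the members differed widely in level. In PBS replicates 1–3 of the IFNγ table Alox5ap stood first at 100.2 ± 6.09 CPM per kb, followed by Hpgds at 23.7 ± 3.06 and Pla2g4a at 17.4 ± 1.19 (SD, n = 3). Ltc4s (9.04 ± 0.253), Lta4h (8.87 ± 0.308) and Alox5 (7.65 ± 1.80) came next and did not differ beyond their spread, nor did Ptges (1.30 ± 0.244) and Ptgs1 (1.16 ± 0.202). Ptgs2, at 0.675 ± 0.164, and Tbxas1, at 0.0672 ± 0.0235, were the lowest. In SE the order changed, with Ptgs2 at rank 3 (22.9 CPM per kb), Alox5 at rank 8 (1.58) and Ptgs1 last (0.126). The first and last places in PBS, Alox5ap and Tbxas1, were the same in both tables and both label sets.

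Pla2g4a (chr1:149829618-149961290, GRCm38) was among the most abundant members. In the IFNγ table it was at 109, 105 and 120 CPM in PBS replicates 1–3, at 194, 173 and 201 CPM in SE and at 156, 178 and 156 CPM in PE. Both peptide groups lay above PBS without overlap. The log2 fold change was 0.77 (standard error, s.e., 0.09, adjusted p = 6.54e-07) for SE, a 1.7-fold rise, and 0.56 (s.e. 0.09, adjusted p = 4.26e-05) for PE, a fold of 1.47 that missed the fold limit. The rise in PE was called with replicates 1–3 fitted alone (0.59, adjusted p = 1.63e-05) and without histone, small RNA and mitochondrial genes (0.60, adjusted p = 9.04e-06). Leaving out PBS replicate 3, PE replicate 1, PE replicate 3 or the libraries labelled SE, replicates 4–6, also gave a call. The other fits did not call it. Across replicates 4–6, the levels were 201, 225 and 247 CPM in PBS and 335, 321 and 298 CPM in PE, with a log2 fold change of 0.50 (adjusted p = 0.000219) that again fell short of the fold limit. The libraries labelled SE had 203, 170 and 185 CPM. With IL-4 Pla2g4a was not called, but its change in SE, replicates 1–3, lay just under the fold limit. There it was called lower with the replicate block (log2 fold change -0.60, adjusted p = 0.00176). The same held without PBS replicate 3 (-0.61, adjusted p = 0.0371) and without SE replicate 1 (-0.76, adjusted p = 0.000915). Within replicates 1–3, Pla2g4a was at 179, 172 and 165 CPM in PBS, at 142, 93.4 and 109 CPM in SE and at 138, 137 and 130 CPM in PE, both below PBS without overlap, with log2 fold changes of -0.58 (adjusted p = 0.0105) and -0.35 (adjusted p = 0.122). In the set of replicates 4–6, the 3 arms overlapped, with means of 360 ± 32.1, 378 ± 22.2 and 351 ± 54.3 CPM (SD, n = 3).

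Alox5 (chr6:116410077-116461178, minus strand), the enzyme that opens the leukotriene branch, fell in 7 of the 8 contrasts against PBS, more than any other member. With IFNγ, it was at 22.9, 34.9 and 36.4 CPM in PBS replicates 1–3, at 6.87, 6.91 and 5.73 CPM in SE and at 8.63, 9.74 and 10.5 CPM in PE. No peptide library reached the lowest PBS library. The falls were 4.83-fold for SE (log2 fold change -2.27, s.e. 0.20, adjusted p = 1.55e-08) and 3.25-fold for PE (log2 fold change -1.70, s.e. 0.19, adjusted p = 7.16e-07). Over replicates 4–6, Alox5 was at 17.9, 21.2 and 12.5 CPM in PBS and at 4.12, 5.91 and 6.65 CPM in PE, a 3.03-fold fall (adjusted p = 5.44e-06). The libraries labelled SE had 14.7, 10.99 and 11.9 CPM, which overlapped PBS (adjusted p = 0.208).

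The fall of Alox5 was also seen in the IL-4 table. For replicates 1–3, it was at 37.7, 41.2 and 33.0 CPM in PBS, 15.1, 16.7 and 21.7 CPM in SE and 17.1, 18.5 and 16.3 CPM in PE. The log2 fold changes were -1.07 (s.e. 0.24, adjusted p = 0.00864) and -1.11 (s.e. 0.24, adjusted p = 0.0114). For replicates 4–6, the values were 22.3, 20.1 and 20.5 CPM in PBS, 3.54, 9.24 and 10.3 CPM in SE and 11.3, 10.3 and 13.3 CPM in PE, with log2 fold changes of -1.44 (adjusted p = 0.00389) and -0.86 (adjusted p = 0.0472). Every peptide library was below every PBS library of its set. Without SE replicate 4, the lowest library, the change in SE was -1.09 (adjusted p = 0.000999). With replicates 4–6 fitted alone neither passed (adjusted p = 0.0551 and 0.156). The call in PE, replicates 1–3, was lost without PBS replicate 2 or PE replicate 3 (adjusted p = 0.0549 and 0.0646).

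Alox5ap and Lta4h, the partner of Alox5 and the hydrolase after it, were not called in any of the 12 contrasts within a set. Alox5ap (chr5:149264767-149288153) lay between 142 ± 8.64 CPM in PBS and 177 ± 1.19 CPM in SE in replicates 1–3 of the IFNγ table (log2 fold change 0.31, adjusted p = 0.0138, under the fold limit). With IL-4 its changes against PBS were between -0.35 and 0.14. The ratio of Alox5ap to Alox5 per kb was 13.6 ± 2.96 in PBS, 79.2 ± 9.28 in SE and 46.9 ± 1.70 in PE with IFNγ. Within replicates 4–6, it was 13.2 ± 2.00 in PBS, 46.2 ± 9.71 in PE and 19.4 ± 2.25 in the libraries labelled SE. Lta4h (chr10:93453411-93484875) moved little. With IFNγ its level went from 54.1 ± 1.88 CPM in PBS to 45.4 ± 1.18 in SE and 42.2 ± 0.801 in PE in replicates 1–3, and adjusted p passed (0.00246 and 0.000104) at folds under 1.5. With IL-4 the fitted log2 fold changes of Lta4h lay between -0.04 and 0.00 in all 4 contrasts against PBS.

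Ltc4s (chr11:50236461-50238616, minus strand), which leads to the cysteinyl leukotrienes, was called lower with IFNγ and was not called with IL-4. It was at 9.16, 9.42 and 8.91 CPM in PBS replicates 1–3, at 3.13, 2.61 and 3.02 CPM in SE and at 2.85, 3.17 and 4.81 CPM in PE. The groups did not overlap, and the log2 fold changes were -1.65 (s.e. 0.24, adjusted p = 1.2e-05) and -1.34 (s.e. 0.24, adjusted p = 0.00012). Across replicates 4–6, it was at 4.74, 3.59 and 1.82 CPM in PBS and 1.21, 1.03 and 1.52 CPM in PE, with a log2 fold change of -1.42 (adjusted p = 0.000685), and at 4.91, 4.36 and 4.57 CPM in the libraries labelled SE. With IL-4 the arms overlapped in every contrast against PBS, at 10.8 ± 2.20, 15.1 ± 5.73 and 12.9 ± 2.62 CPM for PBS, SE and PE in replicates 1–3. Whether the IFNγ and IL-4 effects on Ltc4s differ was not tested across the tables. The model of Ltc4s overlaps an antisense gene, Gm26542, which had at most 16 counts in any library.

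Ptgs2 (chr1:150100031-150108227), which encodes COX-2, had the largest fold changes of the members with IFNγ in replicates 1–3. It was at 2.75, 2.58 and 3.96 CPM in PBS replicates 1–3, at 114, 85.6 and 115 CPM in SE and at 34.9, 45.8 and 26.6 CPM in PE. All SE libraries were above all PE libraries, and all PE libraries above PBS. The rises were 33.9-fold for SE (log2 fold change 5.09, s.e. 0.36, adjusted p = 6.65e-10) and 11.6-fold for PE (log2 fold change 3.54, s.e. 0.35, adjusted p = 1.4e-07). In the set of replicates 4–6, the PBS libraries stood at 12.9, 16.8 and 42.2 CPM and the PE libraries at 158, 137 and 133 CPM, a log2 fold change of 2.57 (s.e. 0.29, adjusted p = 1.46e-06). The libraries labelled SE, at 7.53, 6.29 and 8.23 CPM, were below PBS by 1.69 on the log2 scale (3.24-fold, adjusted p = 0.00725). PBS replicate 6 weighed on both values. Without it the log2 fold change was 3.28 for PE and -0.98 for the libraries labelled SE (adjusted p = 0.0267).

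With IL-4, Ptgs2 was not called, though alternative fits called it lower than PBS. Within replicates 1–3, it was at 3.27, 4.12 and 2.60 CPM in PBS, 1.48, 1.47 and 1.72 CPM in SE and 1.74, 1.94 and 1.89 CPM in PE. Both peptide groups were below PBS without overlap, with log2 fold changes of -1.09 (s.e. 0.52, adjusted p = 0.178) and -0.84 (s.e. 0.51, adjusted p = 0.349). With the replicate block the value for SE was -1.08 (adjusted p = 0.0342). With replicates 1–3 fitted alone the values were -1.04 for SE (adjusted p = 0.0137) and -0.79 for PE (adjusted p = 0.0459). With no filter on low counts they were -1.05 (adjusted p = 0.000196) and -0.80 (adjusted p = 0.0105). Over replicates 4–6, it was at 22.5, 18.8 and 10.04 CPM in PBS, 49.0, 12.1 and 10.9 CPM in SE and 12.6, 9.75 and 6.53 CPM in PE. The groups overlapped, and SE replicate 4 alone set the sign in SE, since the log2 fold change was 0.49 with it and -0.56 without it. In PE the change was -0.82 (adjusted p = 0.302), and -0.82 with no filter on low counts (adjusted p = 0.000477).

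Ptgs1 (chr2:36230426-36252272), which encodes COX-1, fell with IFNγ where Ptgs2 rose, apart from the libraries labelled SE, replicates 4–6. In the IFNγ table it was at 3.59, 4.91 and 4.99 CPM in PBS replicates 1–3, at 0.582, 0.436 and 0.451 CPM in SE and at 0.323, 0.492 and 0.595 CPM in PE. These were 128 to 162 counts in PBS and 11 to 21 in the peptide libraries. The falls were 9.11-fold for SE (log2 fold change -3.19, s.e. 0.30, adjusted p = 3.94e-08) and 9.46-fold for PE (log2 fold change -3.24, s.e. 0.30, adjusted p = 5.32e-08). For replicates 4–6, it was at 2.60, 3.15 and 3.05 CPM in PBS and at 0.0833, 0.387 and 0.457 CPM in PE, the first of these being 2 counts, with a log2 fold change of -3.12 (adjusted p = 4.65e-07). The libraries labelled SE were between, at 2.14, 1.10 and 1.56 CPM (log2 fold change -0.86, adjusted p = 0.0801), which DESeq2 called (-0.85, adjusted p = 0.0261), so that both cyclooxygenases were lower than PBS there. With IL-4 Ptgs1 was higher than PBS.

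In the IL-4 table Ptgs1 was at 4.48, 10.99 and 9.37 CPM in PBS replicates 1–3, at 15.3, 33.0 and 38.0 CPM in SE and at 18.05, 22.3 and 24.0 CPM in PE. No peptide library fell to the level of PBS. The rises were 3.47-fold for SE (log2 fold change 1.79, s.e. 0.38, adjusted p = 0.00674) and 2.59-fold for PE (log2 fold change 1.37, s.e. 0.38, adjusted p = 0.0391). Without any 1 of the 6 libraries the call in PE was lost (log2 fold change 1.07 to 1.63). Within replicates 4–6, it was at 7.96, 7.36 and 6.68 CPM in PBS, 7.12, 20.3 and 25.1 CPM in SE and 15.3, 15.8 and 18.3 CPM in PE, with log2 fold changes of 1.26 (adjusted p = 0.0804) and 1.16 (adjusted p = 0.0898). With the replicate block Ptgs1 was called in both arms (adjusted p = 0.0224 in SE and 0.0188 in PE), and the same-numbered libraries of PE and PBS, but not those of SE and PBS, all deviated together. SE replicate 4, which lay at the PBS level here, was also the library with the high Ptgs2 and the low Alox5. Without it Ptgs1 rose in SE by 1.64 on the log2 scale (adjusted p = 0.0143).

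The share of the cyclooxygenase transcript that came from Ptgs2, per kb of exon, follows from these levels. For replicates 1–3 of the IFNγ table it was 36.8% ± 5.22 in PBS, 99.4% ± 0.0785 in SE and 98.4% ± 0.814 in PE (SD, n = 3). Across replicates 4–6, it was 84.9% ± 6.27 in PBS, 99.7% ± 0.180 in PE and 79.8% ± 4.33 in the libraries labelled SE. With IL-4 it went the other way in replicates 1–3, from 27.1% ± 9.93 in PBS to 4.98% ± 2.26 in SE and 6.90% ± 0.661 in PE. In the set of replicates 4–6, it was 65.0% ± 7.84 in PBS and 32.9% ± 9.01 in PE, and SE held 85.4%, 33.5% and 26.8% in its 3 libraries. The PBS share differed between the label sets in both tables, so only differences within a set are read.

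**Figure D2:**
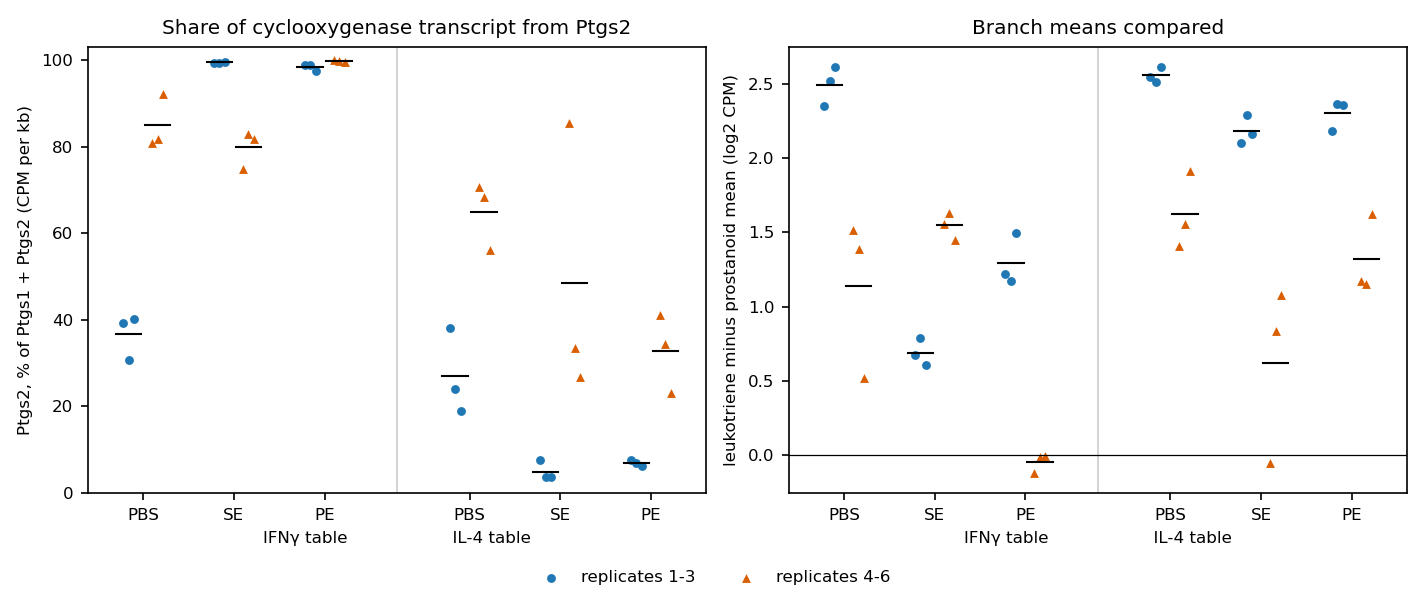
Left, share of the summed Ptgs1 and Ptgs2 level (CPM per kb of exon) that came from Ptgs2. Right, mean log2 CPM of the 4 leukotriene genes minus that of the 5 prostanoid genes. Each point is a library (circles, replicates 1–3; triangles, replicates 4–6), by arm and table, with bars at the mean of 3. Within replicates 1–3, the Ptgs2 share rose from 36.8% in PBS to 99.4% in SE with IFNγ, and fell from 27.1% to 4.98% with IL-4.

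Tbxas1 (chr6:38875404-39084585), the thromboxane synthase, rose with IFNγ from the lowest level per kb of all members. It was at 0.673, 0.788 and 0.374 CPM in PBS replicates 1–3, at 4.13, 4.82 and 5.22 CPM in SE and at 5.08, 4.87 and 4.42 CPM in PE. Both peptide groups lay in the same range, far above PBS, with log2 fold changes of 2.94 (s.e. 0.25, adjusted p = 1.03e-08) and 2.96 (s.e. 0.25, adjusted p = 1.42e-08). Over replicates 4–6, it was at 0.505, 0.710 and 0.922 CPM in PBS and 5.08, 3.29 and 5.05 CPM in PE (log2 fold change 2.67, adjusted p = 5.3e-08), while the libraries labelled SE had 1.10, 0.828 and 0.880 CPM. With IL-4 it rose in replicates 1–3, from 0.627 ± 0.166 CPM in PBS to 1.95 ± 0.180 in SE (log2 fold change 1.63, adjusted p = 0.00799) and 1.65 ± 0.954 in PE (log2 fold change 1.40, adjusted p = 0.0286). The PE value rested on PE replicate 1, at 2.73 CPM, and was 0.82 (adjusted p = 0.168) without it. It also lost its call without PBS replicate 2 or 3. For replicates 4–6, the fitted changes were 0.65 and 0.46 and passed no test. The gene model overlaps Hipk2 on the other strand by 762 bases. Hipk2 had up to 3095 counts in a library, and the strand setting of the counting is not given in the sources used here.

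Ptges (chr2:30889471-30929863, minus strand), which makes prostaglandin E2 from the product of the cyclooxygenases, did not follow Ptgs2 in both peptides. For replicates 1–3 of the IFNγ table it was at 5.77, 5.58 and 4.02 CPM in PBS, 8.03, 5.93 and 7.66 CPM in SE and 2.82, 3.17 and 3.09 CPM in PE. SE lay above PBS and PE below it, both without overlap. The log2 fold changes were 0.49 (s.e. 0.15, adjusted p = 0.0137), at a fold of 1.41, for SE and -0.76 (s.e. 0.16, adjusted p = 0.000864) for PE. Within replicates 4–6, PBS had 2.96, 2.52 and 2.88 CPM, PE had 3.29, 4.16 and 3.07 CPM, and the libraries labelled SE had 3.62, 3.70 and 3.22 CPM, with nothing called. The change in PE differed between the label sets, by 1.08 on the log2 scale (s.e. 0.23, adjusted p = 0.00628), where 11.5% of all genes differed. With IL-4, PE was lower in replicates 1–3 (5.61 ± 0.771 CPM in PBS and 2.87 ± 0.805 in PE, log2 fold change -0.97, adjusted p = 0.0163), a call lost without PBS replicate 2, PE replicate 1 or PE replicate 2. The other set had 1.77 ± 0.246 CPM in PBS and 1.24 ± 0.104 CPM in PE (log2 fold change -0.52, adjusted p = 0.276).

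Hpgds (chr6:65117293-65144908, minus strand), the prostaglandin D2 synthase of hematopoietic cells, had the highest level of the prostanoid genes per kb in PBS. It was called lower with IFNγ in SE, replicates 1–3. Within replicates 1–3, it was at 175, 142 and 139 CPM in PBS, 87.9, 92.3 and 89.4 CPM in SE and 105, 108 and 112 CPM in PE. The log2 fold change was -0.76 (s.e. 0.08, adjusted p = 2.47e-07) in SE and -0.49 (adjusted p = 6.81e-05) in PE, the latter under the fold limit. Across replicates 4–6, it went from 268 ± 10.8 CPM in PBS to 209.6 ± 12.96 in PE (log2 fold change -0.35, adjusted p = 0.00236), and the libraries labelled SE were at 269 ± 20.2. With IL-4 no Hpgds change was called. The ratio of Hpgds to Tbxas1 per kb fell from 383 ± 137 in PBS to 27.2 ± 2.94 in SE and 32.2 ± 3.37 in PE in replicates 1–3 with IFNγ, and from 564 ± 169 to 69.5 ± 21.5 in PE in replicates 4–6.

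**Figure D3:**
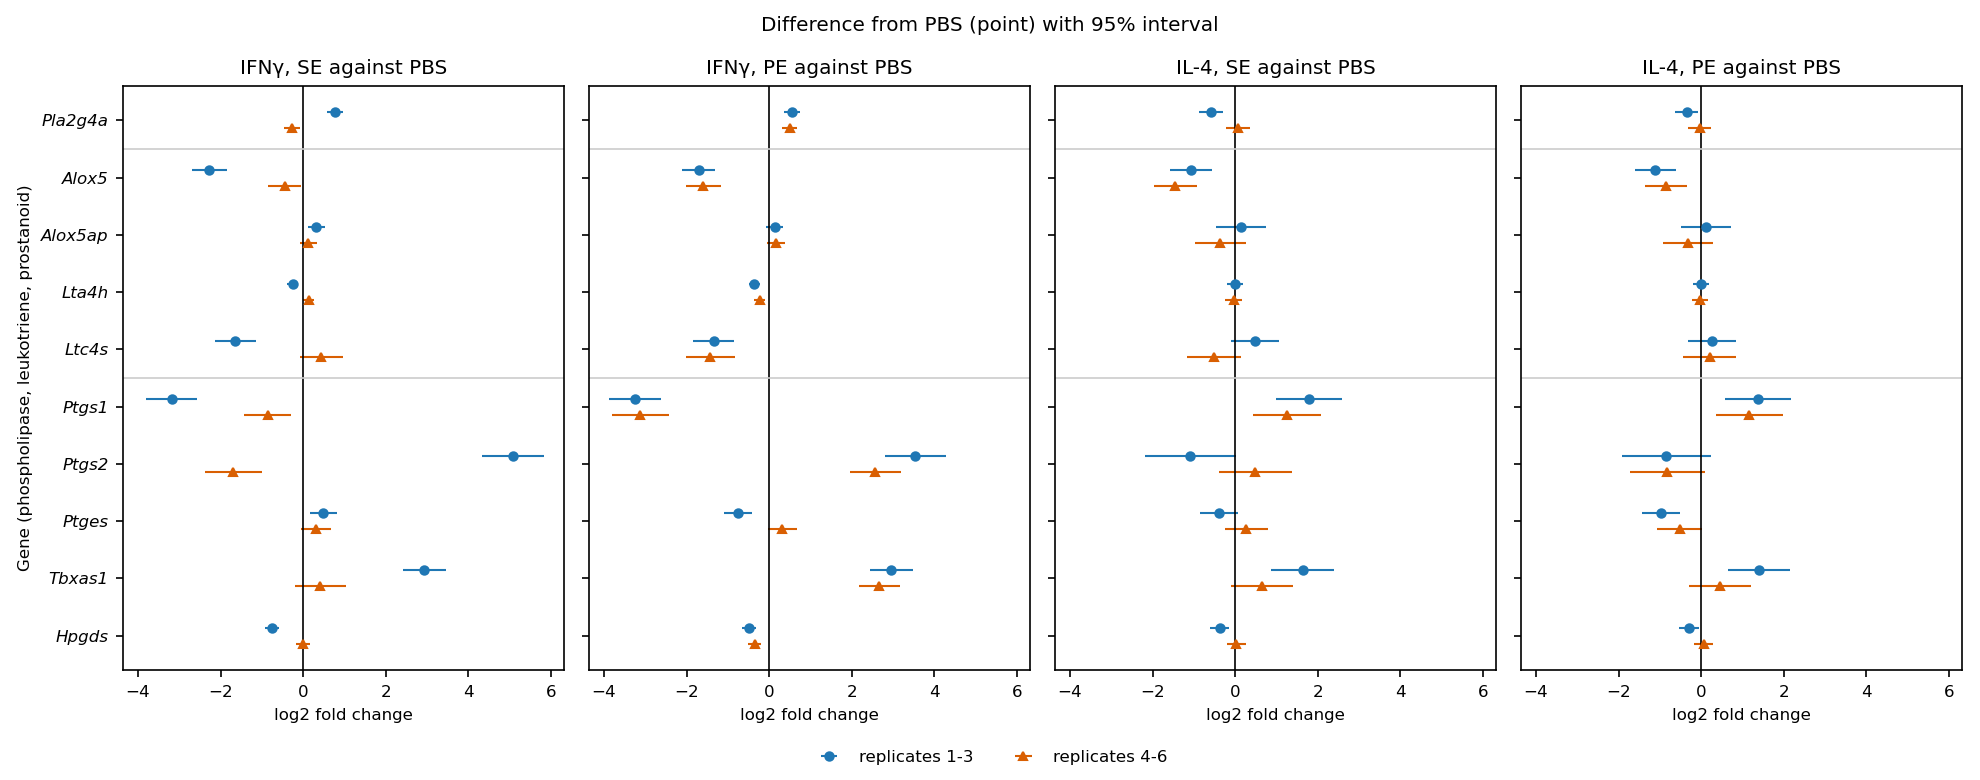
Log2 fold change of each member against PBS of the same label set with its 95% interval, for SE and PE in the IFNγ and IL-4 tables. Circles are replicates 1–3 and triangles are replicates 4–6, and grey lines part the phospholipase, the leukotriene and the prostanoid genes. With IFNγ the points of Ptgs2 lie between 2.57 and 5.09 and those of Ptgs1 between -3.24 and -3.12, except in the libraries labelled SE, replicates 4–6, at -1.69 and -0.86.

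Set side by side, the calls against PBS were all falls in the leukotriene branch and were of both directions in the prostanoid branch. Over the 8 contrasts against PBS, Alox5 was called lower in 7 and Ltc4s in 3, and Alox5ap and Lta4h in none. In the prostanoid branch Ptgs2 was called in 4, Ptgs1 and Tbxas1 in 5 each, Ptges in 2 and Hpgds in 1. In SE with IFNγ, replicates 1–3, the median log2 fold change was -0.95 over the 4 leukotriene genes and 0.49 over the 5 prostanoid genes, beside -0.04 over all tested genes, which had medians from -0.07 to -0.000926 in the 8 contrasts against PBS. In PE it was -0.85 and -0.49 in replicates 1–3 and -0.83 and 0.32 in replicates 4–6, so the prostanoid median had no constant sign while the leukotriene median was negative each time. In the libraries labelled SE, replicates 4–6, the medians were 0.13 and 0.00395. With IL-4 the leukotriene medians were 0.07 in SE and 0.06 in PE in replicates 1–3, and -0.43 and -0.17 in replicates 4–6. The prostanoid medians with IL-4 were -0.38 and -0.29 in replicates 1–3, and 0.49 and 0.06 in replicates 4–6. These are descriptions of 4 and 5 genes, with no test of the branches.

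The distance between the branches narrowed with IFNγ in every peptide set that carried the IFNγ response. Its mean was below that of PBS in every peptide set with IL-4 too, where PE overlapped PBS in replicates 4–6. The mean log2 CPM of the leukotriene genes lay above that of the prostanoid genes by 2.49 ± 0.132 in PBS replicates 1–3, by 0.69 ± 0.0892 in SE and by 1.30 ± 0.175 in PE (SD, n = 3). In the set of replicates 4–6, the difference was 1.14 ± 0.539 in PBS, -0.05 ± 0.0634 in PE and 1.55 ± 0.0916 in the libraries labelled SE. With IL-4 it was 2.56 ± 0.0505, 2.19 ± 0.0977 and 2.30 ± 0.103 for PBS, SE and PE in replicates 1–3, and 1.63 ± 0.262, 0.62 ± 0.597 and 1.32 ± 0.265 in replicates 4–6. Genes differ in length, so only the change of this difference between arms of a set is read.

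The peptides were then compared with each other, SE against PE, with cytokine, dose and time the same by the labels. With IFNγ, replicates 1–3, 2 members were called (background 5.33%), Ptgs2 and Ptges, and both were higher in SE. The log2 difference was 1.55 (95% interval 0.96 to 2.14, adjusted p = 0.000695) for Ptgs2, or 2.93-fold, and 1.25 (0.92 to 1.59, adjusted p = 1.94e-05) for Ptges, or 2.38-fold. Alox5 was at 6.50 ± 0.674 CPM in SE and 9.63 ± 0.957 in PE, a difference of -0.57 (-0.99 to -0.15, adjusted p = 0.0573). For Tbxas1 the interval was -0.43 to 0.39 and for Ptgs1 -0.72 to 0.83, which left room for differences within these bounds. The intervals of Ltc4s were -0.83 to 0.22, of Alox5ap -0.02 to 0.39 and of Lta4h -0.02 to 0.24. That of Pla2g4a, 0.03 to 0.40, was wholly positive, around a difference of 0.21 that was under the fold limit. Hpgds was lower in SE by 0.27 on the log2 scale (-0.44 to -0.10, adjusted p = 0.0242), under the fold limit.

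Over replicates 4–6, the libraries labelled SE differed from PE in 6 members (background 13.9%). Ptgs2 was lower by 4.27 on the log2 scale, Tbxas1 by 2.26 and Pla2g4a by 0.77, and Alox5 (1.15), Ltc4s (1.86) and Ptgs1 (2.26) were higher. The difference of SE from PE changed between the label sets for 9 members (28.8% of all genes did), all but Alox5ap, and that of SE from PBS for 8 (35.7%), all but Alox5ap and Ptges. For Ptgs2 these changes were -5.82 (adjusted p = 4.88e-09) and -6.78 (adjusted p = 2.09e-09). For Lta4h the change of SE from PE was 0.26 (adjusted p = 0.0331), and it lost its call with no filter on low counts (adjusted p = 0.232). The same held without SE replicate 1, 2, 4 or 5, or PE replicate 2, 3 or 6 (adjusted p = 0.0505 to 0.0833). The IFNγ response list was at the PBS level in the libraries labelled SE, replicates 4–6, and its part in these differences was not tested. Without them, SE against PE in replicates 1–3 again gave 2 calls.

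With IL-4, edgeR called no member between SE and PE in either set, and no gene at all (0% in replicates 1–3, in replicates 4–6 and in the difference between the sets). An unadjusted p under 0.05 was found for 570 of the 14183 genes and 1 member in replicates 1–3 and for 1321 genes and 4 members in replicates 4–6. DESeq2 called 0 and 46 genes in these sets and no member in either. For Ptges the log2 difference was 0.58 (95% interval 0.11 to 1.06) in replicates 1–3 and 0.79 (0.26 to 1.32) in replicates 4–6, with SE above PE in all libraries of each set and adjusted p of 1 and 0.354. For Ptgs2 in replicates 4–6 it was 1.30 (0.40 to 2.21), and 0.24 without SE replicate 4. The intervals of Lta4h were the narrowest, -0.20 to 0.20 and -0.21 to 0.18. Those of Alox5 were -0.46 to 0.54 and -1.11 to -0.06, of Ltc4s -0.35 to 0.81 and -1.36 to -0.07, and of Alox5ap -0.58 to 0.62 and -0.64 to 0.57. Ptgs1 had -0.34 to 1.19 and -0.68 to 0.87, Tbxas1 -0.45 to 0.91 and -0.52 to 0.89, Hpgds -0.32 to 0.15 and -0.27 to 0.20, and Pla2g4a -0.52 to 0.05 and -0.18 to 0.39. All these left room for differences of such sizes between the peptides. Between the label sets edgeR called no member in any of the 3 IL-4 contrasts, where 4.39% of all genes did for SE against PBS and 0.00705%, or 1 gene, for PE against PBS. At an unadjusted p under 0.05, 4 members differed between the sets for SE against PBS, where 24.1% of all genes did. For PE against PBS 1 member did (10.5% of all genes), and for SE against PE 2 did (3.13%). DESeq2 called 1, 0 and 0 members in these contrasts, and 1501, 138 and 0 of the 14183 genes. With the replicate block 4 were called for SE against PBS, namely Alox5ap (adjusted p = 0.0416), Ltc4s (0.0126), Ptgs2 (0.0434) and Pla2g4a (0.00973), although the numbers of SE and PBS in replicates 4–6 did not pair.

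**Figure D4:**
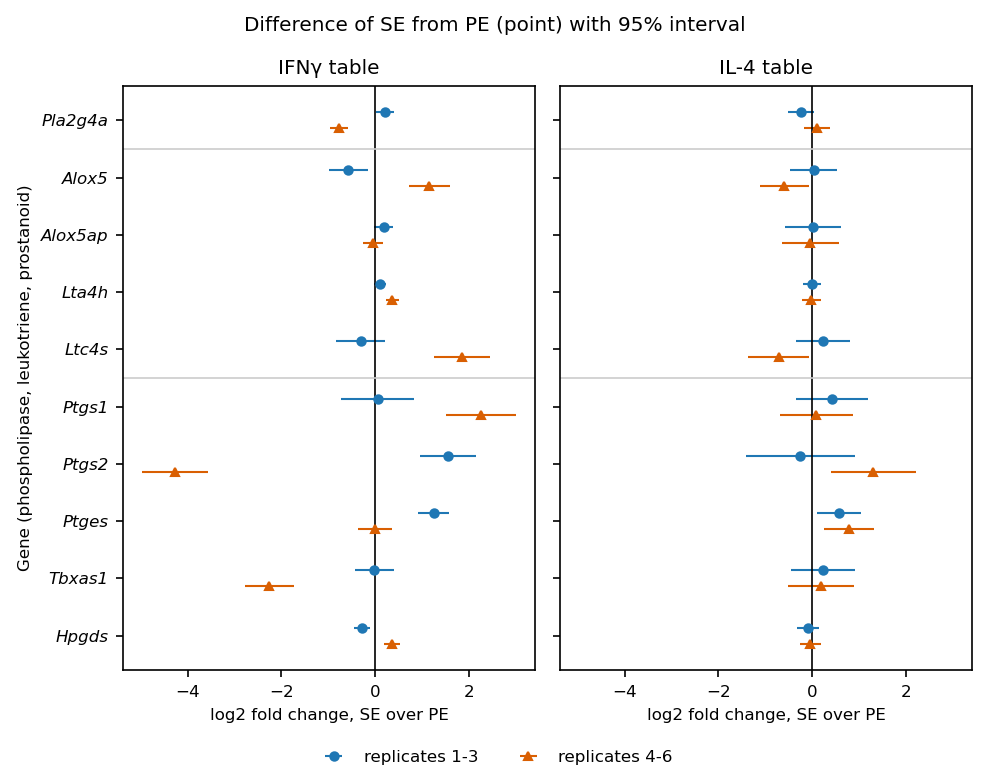
Log2 difference of SE from PE for each member with its 95% interval, in the IFNγ table (left) and the IL-4 table (right). Circles are replicates 1–3 and triangles are replicates 4–6. With IFNγ, Ptgs2 and Ptges stand at 1.55 and 1.25 in replicates 1–3, and the libraries labelled SE, replicates 4–6, have Ptgs2 at -4.27.

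Of 56 other genes of the pathway, 38 were tested in the IFNγ table and 31 in the IL-4 table. In SE against PBS, replicates 1–3 with IFNγ, 13 rose and 6 fell (21.2% of all tested genes were called). In PE against PBS 10 rose and 5 fell in replicates 1–3 (18.5%), and 9 rose and 3 fell in replicates 4–6 (11.2%). In the libraries labelled SE, replicates 4–6, 1 rose and 1 fell (2.04%), and these 2 calls became 4 or 5 without PBS replicate 4 or 5 and 1 without PBS replicate 6, SE replicate 4 or SE replicate 6. With at least 10 counts in every library only 26 of these genes were tested, and the counts of 19, 15 and 12 became 12, 9 and 3. With IL-4, 4 rose and 1 fell in SE (6.17%) and 5 rose and 1 fell in PE (3.48%) in replicates 1–3, where without PE replicate 1 the 6 calls in PE became 3. Of the same 31 genes, 1 rose and 2 fell in SE (2.21%) and in PE (3.58%) in replicates 4–6. Those 3 calls in SE became 1 without SE replicate 4, 5 without SE replicate 5 or 6, and 0 with the label set alone, and the 3 in PE became 7 with the replicate block and 6 by DESeq2. Between SE and PE, 1 was higher and 2 lower in SE in replicates 1–3 with IFNγ (5.33%), 4 were higher and 6 lower in replicates 4–6 (13.9%, with 5 of 26 called under the filter of 10 counts), and none of the 31 was called with IL-4.

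Other phospholipases were among these genes. Pla2g16 was at 0.617 ± 0.280 CPM in PBS replicates 1–3 of the IFNγ table, 16.9 ± 0.738 in SE and 19.4 ± 0.926 in PE, with log2 fold changes of 4.77 (adjusted p = 1.84e-12) and 4.97 (adjusted p = 1.18e-12), and it was at 11.03 ± 0.764 CPM in PE replicates 4–6 and 0.361 ± 0.317 CPM in the libraries labelled SE. With IL-4 it rose in PE, replicates 1–3 (0.858 ± 0.291 CPM, log2 fold change 1.23, adjusted p = 0.0491). The secreted phospholipase Pla2g5 rose in SE by 1.99 and in PE by 1.70 in replicates 1–3, and in PE by 0.83 in replicates 4–6. Pla2g2e, another secreted form, rose with IFNγ by 0.83 in SE and 0.73 in PE in replicates 1–3 and with IL-4 by 0.75 in SE. The lysosomal Pla2g15 rose in SE with both cytokines in replicates 1–3 (0.65 with IFNγ and 0.69 with IL-4) and in PE with IL-4 (0.66). Anxa1, annexin A1, which is known to restrain phospholipase A2, fell with IFNγ in PE replicates 1–3 by 0.72 (adjusted p = 6.14e-05) and rose with IL-4 by 0.64 in SE and 0.66 in PE in replicates 1–3. Lpcat2, which makes the precursor lipid into platelet-activating factor, fell in 6 contrasts against PBS, by 1.08 and 1.24 with IFNγ in replicates 1–3 and by 0.74 to 1.16 with IL-4 in both sets.

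On the leukotriene side, the microsomal glutathione transferases Mgst2, which can also make leukotriene C4, and Mgst3 fell with IFNγ as Ltc4s did. Mgst3 fell by 1.32 in SE and 0.77 in PE in replicates 1–3 and by 0.91 in PE in replicates 4–6, and Mgst2 by 0.89, 0.75 and 1.07. Neither was called with IL-4. Cysltr1, a receptor for cysteinyl leukotrienes, fell with IFNγ in replicates 1–3 by 1.45 in SE and 0.69 in PE. Its difference between SE and PE there was -0.76 (adjusted p = 0.0127). Across replicates 4–6 of that table its fitted changes against PBS were positive and not called, so the fall was not seen there. Cotl1, which is known to bind 5-lipoxygenase, fell with IL-4 in replicates 4–6 by 0.60 in SE and 0.61 in PE. On the prostanoid side, Ptgir, the prostacyclin receptor, was at 56.2 ± 1.90 CPM in PBS replicates 1–3 of the IFNγ table and rose by 1.16 in SE and 0.81 in PE. For replicates 4–6 of that table it was lower than PBS in PE by a log2 fold change of -0.44 (adjusted p = 0.00801), under the fold limit, so its direction was not shared by the label sets. With IL-4 it rose in PE by 0.74 and 0.81 in the label sets and in SE by 1.10 in replicates 4–6.

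The genes most like each member were found by the Pearson correlation of log2 CPM over the 18 libraries of a table, centred within the label sets, among genes with a mean of at least 5 CPM. All points share the arms and the libraries, so these are descriptions. With IFNγ, Ptgs2 was closest to Ccl2 (0.993) and Ifi204 (0.993), Pla2g4a to Ptgs2 itself (0.982) and Ifi202b (0.978), and Tbxas1 to Psmb9 (0.983) and Gm18342 (0.983). Those that fell were closest to Arap3 (0.975) and Trip6 (0.967) for Alox5, Timp2 (0.971) and Klc4 (0.969) for Ltc4s, and Slfn5 (0.968) and P4hb (0.967) for Ptgs1. Ptges and Alox5ap had no neighbour above 0.902 and 0.866, those of Rnf149 and Kxd1. In the IL-4 table Alox5 was closest to Txnip (0.951), Ptgs1 to Tmem246 (0.926), Ptgs2 to Irf9 (0.921) and Lta4h, which hardly moved, to Glud1 (0.802). Hpgds was closest to Sub1 (0.976) with IFNγ and Far1 (0.934) with IL-4, and Pla2g4a with IL-4 to Atp2c1 (0.960). No gene was among the 2 nearest to the same member in both tables.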

How the data were processed

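RNA-seq was done on 36 RAW264.7 libraries. Per the labels and methods, poly(A) RNA was made into stranded libraries and read from a single end. By the same sources, uniquely aligned reads were counted per gene with featureCounts on GRCm38.p5 and GENCODE M12. The label sets differed in their shares of protein-coding counts and of histone, small RNA and mitochondrial counts, as given above. Whether both sets came from the same poly(A) preparation was not tested. The submitters' processing notes name DESeq2 1.16.1 and R 3.4.1. Which aligner was used, and whether counting used strand, is not given in the sources used here. The deposited values are whole-number counts, not normalized, in 2 tables that were fitted separately.

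Each table was fitted in R 4.3.3 by edgeR 4.0.16 (quasi-likelihood F-test, filterByExpr, TMM) with 1 mean per arm and label set over its 18 libraries, and p-values were adjusted by Benjamini-Hochberg over all tested genes. A call needed an adjusted p under 0.05 and a fold over 1.5, with no fold limit for differences between label sets. The standard error of a log2 fold change is its size over the root of F. The fit was tested on simulated data. Alternatives were RLE, DESeq2 1.42.0, other low-count filters, each label set alone, a replicate block, size factors without histone, small RNA and mitochondrial genes, and leaving out each library. The fit without the 3 libraries labelled SE, replicates 4–6, was added after seeing the data. The study calls the replicates biological and says that they came from independent experiments, but the labels state neither. Whether the label sets are those experiments is not stated. If the replicates are not biological, the p-values measure technical spread. No pair of libraries of the same arm and label set agreed within sampling noise, nor did same-numbered PBS replicates 1–3 of the IFNγ and IL-4 tables. Pairs from different arms were not compared, so a repeated library under another label was not tested for.

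Branch means are means of log2(CPM + 0.5). Levels per kb use the union of exons in GENCODE M21, where 95.25% of the gene rows were found. They understate a gene whose union is longer than the transcript made. The union of Tbxas1, at 9094 bases, was the longest of the members, and that of Ptges had 3931 bases. Floors cover counting error only. Members and lists were chosen with earlier results of these data known. Named were the 10 members, pathway genes called in at least 2 of the 12 contrasts within a label set at a mean of at least 5 CPM, and the 2 most similar genes per member. Same-numbered libraries of IL-4 replicates 1–3 had positive correlations throughout (9, from 0.151 to 0.543), and the block took the numbers to pair them. Replicates 2 and 3 were not told apart by number. SE replicate 2 had 0.287 with PE replicate 3 and 0.213 with PE replicate 2. PE replicate 3 had 0.222 with PBS replicate 2 and 0.155 with PBS replicate 3. All same-numbered correlations were also positive for PE and PBS in IL-4 replicates 4–6 (0.225 to 0.516) and for SE and PE in IFNγ replicates 4–6 (0.126 to 0.159), and for no other pair of arms. The pairing comes from the data, since no label states it.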

Additional observations from a re-analysis of the deposited data

Results flagged for a closer look

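In 4 of 60 groups of 6 libraries (10 members in 6 groups), a single library lay apart from the rest by Dixon's test, which chance gives in about 1 of 20 groups. Ptgs2 was at 42.2 CPM in PBS replicate 6 of the IFNγ table, where the next library had 16.8 CPM, and at 49.0 CPM in SE replicate 4 of the IL-4 table, where the next had 12.1 CPM. Ptges was at 4.16 CPM in PE replicate 5 of the IFNγ table and Tbxas1, in the same library, at 3.29 CPM, the lowest of its group. Levels of replicates 1–3 and 4–6 differ for most members, so a group of 6 is not a single cluster.

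With IFNγ and IL-4 together, 18 of 60 tested differences between the label sets passed, all of them in the IFNγ table and all but 1 in contrasts with SE. Over all tested genes, 4.39%, 0% and 0.00705% differed with IL-4 for SE against PBS, SE against PE and PE against PBS. With IFNγ, in the same order, 35.7%, 28.8% and 11.5% did. For SE against PBS the difference (replicates 4–6 minus replicates 1–3, log2) was -6.78 for Ptgs2, -2.52 for Tbxas1, -1.04 for Pla2g4a, 0.39 for Lta4h, 0.76 for Hpgds, 1.82 for Alox5, 2.09 for Ltc4s and 2.33 for Ptgs1. For SE against PE it was -5.82 for Ptgs2, -2.24 for Tbxas1, -1.26 for Ptges, -0.99 for Pla2g4a, 0.26 for Lta4h, 0.63 for Hpgds, 1.72 for Alox5, 2.16 for Ltc4s and 2.21 for Ptgs1. The value of Lta4h there lost its call in several of the alternative fits, as given in the report. The libraries labelled SE, replicates 4–6, sat at the PBS level of the IFNγ response list, as given in the report, and its part in these values was not tested. For PE against PBS the difference passed for Ptges, at 1.08.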

How the results depend on the processing

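No direction of a called member was reversed by any alternative. Of the values of single members recomputed, 2605 stayed on the same side of the threshold, called or not, 44 gained a call and 32 lost one. In the IFNγ table the counts of members called moved by over 1.5 times only for SE against PBS in replicates 4–6 (1, and 2 by DESeq2 or with no filter) and for the difference of PE against PBS between the label sets (1, and 2 with no filter). In the IL-4 table, SE against PBS in replicates 1–3 gave 3, and 5 with the replicate block. In replicates 4–6 it gave 1, and 2 by DESeq2, with no filter or with the replicate block, and 0 with the label set alone. PE against PBS in replicates 4–6 gave 1, and 0 by RLE or with the set alone, 2 with the replicate block and 3 with no filter. The difference of SE against PBS between the sets gave 0, and 1 by DESeq2 or with at least 10 counts in every library, 3 with no filter and 4 with the replicate block. SE against PE gave 0, and 2 in replicates 4–6 and 1 between the sets with no filter. The block changed no other count by over 1.5 times. The cause of these moves was not tested.

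Leaving out 1 library gave, with IFNγ, 7 to 8 members for SE against PBS and 6 to 7 for PE against PBS in replicates 1–3, 1 to 2 for the difference of PE against PBS between the sets and 8 to 9 for that of SE against PE, and no move elsewhere. With IL-4 it gave 2 to 5 for SE and 0 to 3 for PE in replicates 1–3 (0 without PBS replicate 2), 1 to 2 for SE and 0 to 0 for PE in replicates 4–6, and 0 to 3 for the difference of SE against PBS between the sets. Without the 3 libraries labelled SE, replicates 4–6, the remaining IFNγ comparisons gave 7 (SE) and 7 (PE) members in replicates 1–3 and 5 (PE) in replicates 4–6. No scaling moved the median over all genes by more than 0.0623. Low counts limit Ptgs1 in the IFNγ table and Tbxas1 in PBS.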
